A study of Mus musculus with 28 samples.

Results

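The metallothionein and iron handling genes described here are 8 genes taken by name from the 53342 gene identifiers of the count tables: the metallothioneins Mt1, Mt2 and Mt3, the ferritin subunits Fth1 and Ftl1, the iron exporter Slc40a1, the transferrin receptor Tfrc and transferrin, Trf. They were followed across 28 libraries of mouse cerebral cortex, each from 1 mouse on a C57BL/6J background. Bulk RNA-Seq compared 4 cKO with 4 Ctrl mice at P17 and 4 with 4 at P24, and TRAP-Seq compared 3 cKO with 3 Ctrl mice at P24, with an Input and an IP library from each mouse. The cKO mice carried loxP/loxP alleles of the gene deleted in the study together with mGFAP-Cre, a driver that is active in astrocytes. Ctrl mice for the bulk libraries were sex-matched littermates, loxP/loxP or loxP/+, without the driver. For TRAP-Seq, the mice additionally expressed EGFP fused to ribosomal protein L10A under control of mGFAP-Cre, so that ribosomes pulled down with antibodies to GFP carry RNA being translated in the cells of that driver. The IP libraries are enriched for this RNA and the Input libraries hold RNA of the whole homogenate. The TRAP-Seq Ctrl mice were likewise loxP/loxP or loxP/+, with their driver not described separately.

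Metallothioneins are small cysteine-rich proteins that bind zinc and copper. In the brain, Mt1 and Mt2 are made mostly by astrocytes and are induced by metals and by glucocorticoids, through the zinc-sensing factor Mtf1 and the glucocorticoid receptor, whereas Mt3 is the form best known from brain and is not induced in the same way. Ferritin is a shell built from heavy (Fth1) and light (Ftl1) subunits, in which iron is stored after the heavy subunit oxidizes it. Cells take up iron bound to transferrin through the transferrin receptor, and ferroportin, the product of Slc40a1, is the exporter. In cortex, transferrin and ferritin are abundant in oligodendrocytes. The iron regulatory proteins, encoded by Aco1 and Ireb2, bind a hairpin called the iron-responsive element: in iron-poor cells, binding near the start of an mRNA blocks its translation and binding behind the coding part protects it from decay.

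Because the members of the iron group differ in where they carry this element, the hairpins are shown first. Each was found in the principal transcript of the GENCODE annotation (GRCm38) as the letters CAGTGN, with N any base but G, closed by a stem of 5 base pairs (G with T allowed) with a C just before the stem. The 29 bases are given 5′ to 3′ as DNA with the 6 bases of the loop in capitals.
Fth1, 5′ UTR: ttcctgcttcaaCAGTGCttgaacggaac
Ftl1, 5′ UTR: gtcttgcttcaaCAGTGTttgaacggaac
Slc40a1, 5′ UTR: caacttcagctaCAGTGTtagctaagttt
Tfrc, 3′ UTR, element 1: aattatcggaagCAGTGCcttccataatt
Tfrc, 3′ UTR, element 2: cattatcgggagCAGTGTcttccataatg
Tfrc, 3′ UTR, element 3: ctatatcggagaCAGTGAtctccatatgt
Tfrc, 3′ UTR, element 4: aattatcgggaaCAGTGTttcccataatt
The ferritin subunits and Slc40a1 carry 1 element each ahead of the coding part, and Tfrc carries 4 behind it. The match began at base 84 of the transcript in Ftl1 and 96 in Slc40a1. In Fth1 it began at base 664, within an annotated 5′ UTR of 795 bases. The values per kb of Fth1 below depend on this transcript of 1494 bases. Among all principal transcripts, 0.0825% of 5′ UTRs (17 of 20594) and 0.409% of 3′ UTRs (85 of 20758) held a match. None was found in Mt1, Mt2, Mt3 or Trf. A match is a description of the letters, and binding was not measured.

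The metallothioneins lie next to each other on chromosome 8 (GRCm38): Mt3 at chr8:94152607-94154146, Mt2 at chr8:94172664-94173568 and Mt1 at chr8:94179082-94180327, all protein-coding and on the plus strand. Their promoters are shown because the genes of this cluster had the highest levels of all members in the IP libraries. The 250 bases before each RefSeq start (GRCm38.p6, plus strand) are given 5′ to 3′, at chr8:94152357-94152606, chr8:94172368-94172617 and chr8:94178839-94179088. Capitals mark the core of the metal response element bound by Mtf1, searched as TGCACNC or TGCGCNC on both strands.
Mt3: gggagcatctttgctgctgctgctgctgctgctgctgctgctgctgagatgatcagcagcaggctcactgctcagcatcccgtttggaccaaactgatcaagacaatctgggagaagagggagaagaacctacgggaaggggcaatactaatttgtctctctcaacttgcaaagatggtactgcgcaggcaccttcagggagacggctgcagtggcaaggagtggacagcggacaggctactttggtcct
Mt2: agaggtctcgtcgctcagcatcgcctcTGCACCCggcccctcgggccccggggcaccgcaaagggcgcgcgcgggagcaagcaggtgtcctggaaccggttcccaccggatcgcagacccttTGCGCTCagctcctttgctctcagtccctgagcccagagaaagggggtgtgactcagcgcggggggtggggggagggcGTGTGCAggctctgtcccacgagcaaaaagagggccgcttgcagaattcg
Mt1: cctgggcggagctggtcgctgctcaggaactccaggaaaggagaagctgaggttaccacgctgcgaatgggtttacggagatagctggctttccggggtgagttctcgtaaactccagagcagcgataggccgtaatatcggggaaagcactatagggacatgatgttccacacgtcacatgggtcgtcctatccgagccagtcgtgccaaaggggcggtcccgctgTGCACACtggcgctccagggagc
In the full RefSeq windows of 300 bases, which run on past the start, the core was found at 4 places in Mt2, at 3 in Mt1 and at 1 in Mt3. Overlapping matches were counted as 1 place. Tfrc held 1 place in 1 of its 2 annotated promoters, and Ftl1 and Fth1 held none. Of 32851 RefSeq promoters of this length, 25.7% held at least 1 such place, 6.14% at least 2, 1.31% at least 3 and 0.295% at least 4. The core of the antioxidant response element (TGACNNNGC, both strands), known from the regulation of ferritin, was found at 1 place in Mt2 and in no other member with an entry, against 12.4% of all promoters.

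The bulk libraries held between 8855488 and 14575302 counts on genes and the TRAP-Seq libraries between 18433087 and 27242445, so 3 counts correspond to at most 0.339 CPM. CPM are counts divided by library size, here after TMM scaling, with each table scaled on its own. Fold changes come from edgeR's quasi-likelihood test over all genes of a comparison, a gene is called at a Benjamini-Hochberg adjusted p under 0.05, and standard errors (SE) stand in parentheses. All 8 members passed the filter on low counts in every comparison. Ftl1, Mt2 and Trf share sequence with other annotated genes. Ftl1 (chr7:45457944-45459884, minus strand) has 13 annotated copies of at least 95% identity over 100 bases or more, among them Ftl1-ps1, Ftl2-ps and Gm15590, which took between 76.2% and 78.4% of the counts on Ftl1 and its copies together, so its level is uncertain. Mt2 overlaps an antisense gene, Gm45774, with between 46.5% and 52.4% of their summed counts, and the strand setting of the counting is not given. Trf (chr9:103204001-103230444, minus strand) overlaps Gm20425 on the same strand, with between 51.4% and 60.8%. Adding these counts to the member changed none of its calls. One library stood apart: the Input of cKO replicate 1 had a sum of red blood cell markers of 782.5 CPM, against 144.4 to 259.9 in the other 5 Input libraries, and the members' results that use it are given below also without it. The marker lists were checked against the fraction: the sum of 8 astrocyte markers, Gfap and Aldoc among them, ran from 10110 to 13050 CPM in IP and from 963.6 to 1937 in Input libraries.

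Per kilobase of principal transcript, Fth1 was the highest member in all 6 bulk and Input groups and Slc40a1 the lowest in all 8 groups. In bulk cortex of Ctrl mice at P24, the mean levels fell in the order Fth1 (607.4 ± 61.8 CPM per kb, SD, n = 4), Mt1 (340.0 ± 47.9), Mt3 (221.7 ± 9.2), Mt2 (120.2 ± 28.2), Ftl1 (116.0 ± 1.8), Trf (47.2 ± 6.7), Tfrc (13.3 ± 2.0) and Slc40a1 (1.52 ± 0.12). The neighbours Mt2 and Ftl1 lay within their spread. At P17 the order in Ctrl mice began with Fth1 (467.8 ± 50.4), followed by Mt1 (351.8 ± 76.0) and Mt3 (346.6 ± 40.9), which did not differ beyond their spread. Trf stood at 29.2 ± 2.3 CPM per kb at P17 and Slc40a1 at 2.31 ± 0.42. Age and table coincide and cannot be told apart, so levels were not tested between ages. In bulk tissue, fewer cells of a type and less RNA per cell cannot be told apart either.

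**Figure D1:**
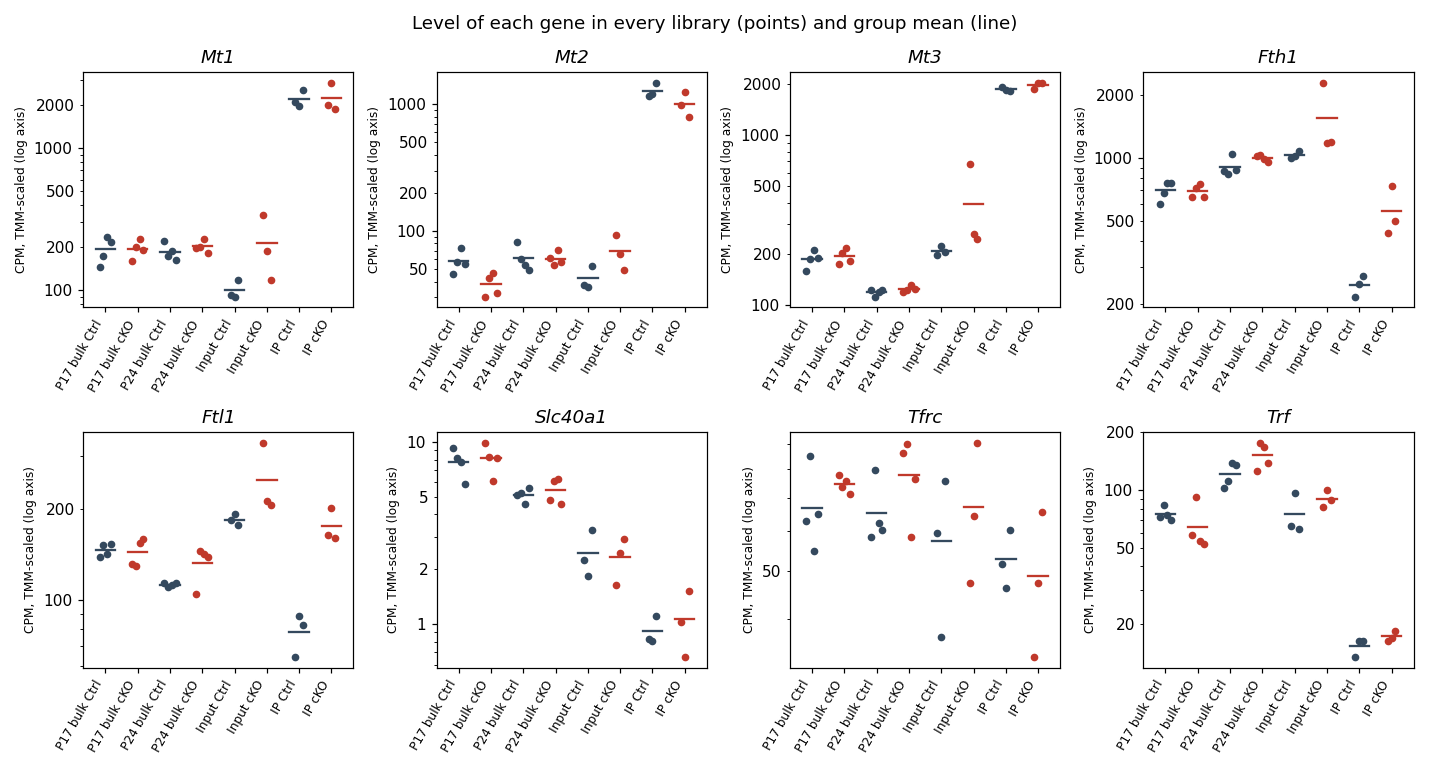
Level of the 8 genes in each of 28 libraries as CPM on a log axis, with a panel per gene, Ctrl in dark blue, cKO in red, points for libraries and lines for group means. Mt1, Mt2 and Mt3 are highest in the IP libraries, while Fth1, Slc40a1, Tfrc and Trf have their lowest group means there. For Tfrc the IP libraries overlap those of other groups. Fth1 and Ftl1 in IP lie higher in cKO than in Ctrl without overlap. The share of all genes that separate in this way was not determined.

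In the IP libraries the order was different: Mt1, Mt3 and Mt2 stood first in both genotypes. In Ctrl mice their means were 4034 ± 571, 3475 ± 88 and 2514 ± 344 CPM per kb (SD, n = 3), against 164.1 ± 18.4 for Fth1 and 80.9 ± 12.6 for Ftl1. Mt1 and Mt3 lay within the spread of Mt1. Trf, which in bulk stood above Tfrc, stood below it in IP (5.99 ± 0.63 against 10.8 ± 1.5).

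The comparison of IP with Input in Ctrl mice asks which of these transcripts were on the ribosomes of the tagged cells. The IP and Input libraries of the same mouse were fitted without a block for the mouse. Metallothionein RNA was strongly enriched there, and RNA of ferritin, transferrin and ferroportin was depleted. Of the 8 members, 3 were called higher and 4 lower in IP, where 35.3% of 24385 genes tested were called higher and 35.7% lower. Transcript length mattered here too. Of protein-coding genes of up to 600 bases, the metallothioneins' length class, 61.8% were called higher and 16.6% lower, with a median log2 fold change of 0.802. Mt1 had 2099, 1975 and 2570 CPM in the 3 IP libraries and 93.0, 90.0 and 117.5 CPM in the 3 Input libraries. This is a log2 fold change of 4.43 (0.15), or 21.5-fold (adjusted p = 9.3e-10). Mt2 had 1154, 1216 and 1484 CPM in IP and 37.9, 36.2 and 53.3 in Input, the largest enrichment among the members at 4.88 (0.17), or 29.4-fold (adjusted p = 1.18e-09). Mt3 had 1915, 1850 and 1823 CPM in IP and 195.3, 222.0 and 203.6 in Input, an 8.73-fold difference (3.13 (0.10), adjusted p = 7.07e-10). For each metallothionein the lowest IP library lay far above the highest Input library. The share of all genes whose IP and Input libraries do not overlap was not determined.

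The ferritin subunits went the other way. Fth1 (chr19:9980598-9985098, plus strand) had 216.1, 249.0 and 270.5 CPM in IP and 996.2, 1018 and 1081 in Input of Ctrl mice, 4.33-fold less in IP (log2 fold change -2.12 (0.11), adjusted p = 1.28e-08). Ftl1 had 64.6, 88.0 and 82.3 CPM in IP and 184.3, 193.1 and 176.9 in Input, 2.43-fold less (-1.28 (0.12), adjusted p = 1.58e-06). The IP and Input libraries did not overlap for either subunit, with the share of all genes that separate in this way not determined.

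Among the iron transport genes, Trf showed the largest depletion. It had 13.5, 16.4 and 16.3 CPM in IP and 64.8, 96.1 and 62.9 in Input of Ctrl mice (log2 fold change -2.32 (0.17), adjusted p = 2.11e-07). Slc40a1 (chr1:45908068-45926523, minus strand) had 0.832, 0.804 and 1.10 CPM in IP and 2.24, 1.83 and 3.28 in Input (-1.46 (0.28), adjusted p = 0.000521), on 15 to 39 counts in an IP library of either genotype. Tfrc (chr16:32608920-32632794, plus strand), the receptor for transferrin, was not called, with 51.5, 46.3 and 60.4 CPM in IP and 59.5, 36.9 and 75.6 in Input (-0.16 (0.20), adjusted p = 0.488), and its groups overlapped. Without Ctrl Input replicate 2, Tfrc was called lower in IP (-0.39, adjusted p = 0.0266), and with the length trend removed its direction turned (0.19, adjusted p = 0.412). The sum of oligodendrocyte markers was 1709 to 2493 CPM in these IP libraries and 2871 to 3049 in the Inputs, and 7 of 8 microglia markers were called lower in IP.

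In cKO mice the metallothioneins were enriched again and 3 members were called lower in IP, with 27.8% of 24011 genes called higher and 28.5% lower. Of protein-coding genes of up to 600 bases, 43.2% were called higher and 10.3% lower, with a median of 0.725. The enrichment was 10.6-fold for Mt1 (3.40 (0.37), adjusted p = 0.000101), 14.6-fold for Mt2 (3.86 (0.27), adjusted p = 1.48e-05) and 5.10-fold for Mt3 (2.35 (0.36), adjusted p = 0.000625). Without cKO Input replicate 1, Mt1 was enriched 14.5-fold (3.86 on the log2 scale), Mt2 17.1-fold (4.10) and Mt3 7.78-fold (2.96). Fth1 (-1.48 (0.30), adjusted p = 0.00285), Trf (-2.40 (0.16), adjusted p = 1.31e-05) and Slc40a1 (-1.15 (0.37), adjusted p = 0.0264) were lower in IP, and without cKO Input replicate 1 they stood at -1.11, -2.47 and -1.34, all still called. Slc40a1 lost its call when cKO IP replicate 1 (adjusted p = 0.0902) or 2 (0.0966), or cKO Input replicate 2 (0.0645) or 3 (0.0917), was left out. Ftl1 was not called (-0.51 (0.20), adjusted p = 0.0583), but it was called with DESeq2 (-0.51, adjusted p = 0.0451), with total counts only (adjusted p = 0.0383), with the length trend removed (-0.82, adjusted p = 0.00238) and without cKO Input replicate 3 (adjusted p = 0.0494), whereas without cKO Input replicate 1 it was at -0.28 (adjusted p = 0.0825). Tfrc was not called (-0.48 (0.30), adjusted p = 0.202); with the mouse as a replicate block its adjusted p was 0.046, and without cKO Input replicate 1 it was 0.0224 (-0.68).

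**Figure D2:**
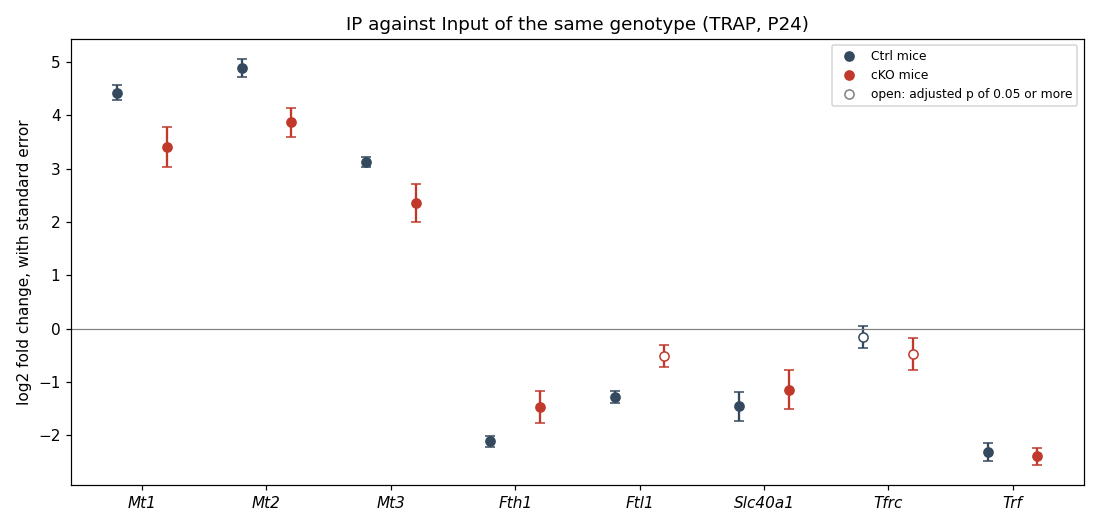
Log2 fold change of IP against Input for each gene in Ctrl (dark blue) and cKO mice (red), with standard errors from 3 mice per genotype, filled where called and open where not. The 3 metallothioneins lie between 2.35 and 4.88, and Fth1, Slc40a1 and Trf lie below 0 in both genotypes.

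Ferritin RNA in the IP libraries was higher in cKO than in Ctrl mice, with both subunits at more than double their Ctrl level. No metallothionein and no iron transport gene was called. This comparison is of RNA pulled down at P24, which was enriched for the tagged cells but not free of other RNA. The 8 neuron markers summed to 2472 to 3026 CPM in Ctrl IP and to 5544 to 6405 in Ctrl Input. Which cells the ferritin RNA in IP came from was not tested. Fth1 had 437.4, 736.6 and 496.3 CPM in the cKO IP libraries against 216.1, 249.0 and 270.5 in Ctrl. Its fold was 2.31 (log2 fold change 1.21 (0.18), adjusted p = 0.00137). Ftl1 had 164.6, 202.7 and 160.3 CPM in cKO against 64.6, 88.0 and 82.3 in Ctrl, 2.28-fold higher (1.19 (0.14), adjusted p = 0.00037). In both genes the groups did not overlap, but the share of all genes that separate in this way in IP was not determined. The heavy and light subunits kept a like ratio, 2.04 ± 0.18 per kb in Ctrl and 2.03 ± 0.32 in cKO (SD, n = 3). Of 23864 genes tested, 11.6% were called higher and 8.42% lower in cKO. Both subunits were called higher under every setting listed in the methods and without each library in turn.

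Several measures moved with this result. The share of genes called higher depended on transcript length: it was 26.3% for principal transcripts of up to 600 bases, 34.1% above that and up to 1000 bases, 15.6% up to 2000 bases, 8.15% up to 4000 bases and 5.23% above 4000 bases. The annotated principal transcripts have 968 bases for Ftl1 and 1494 for Fth1. With the length trend of each library removed, Ftl1 was 1.07 higher on the log2 scale (adjusted p = 0.000674) and Fth1 1.16 (adjusted p = 0.00168). The 8 microglia markers summed to 128.3 to 152.7 CPM in Ctrl IP and to 139.1, 255.5 and 159.6 in cKO IP, with the highest sum in cKO replicate 2, the library that also had the highest Fth1. Of these 8, 1 was called higher and 7 were not called. The defining microglia markers Tmem119, Aif1 and C1qa were low but not at 0, with group means from 0.754 to 1.21 CPM. Of the 8 astrocyte markers, Gfap was called higher and the glutamate transporters Slc1a2 and Slc1a3 lower, and their sums overlapped (10220 to 13050 CPM in cKO, 10110 to 12780 in Ctrl). No oligodendrocyte marker of 8 was called, and their sums were 1579 to 1926 CPM in cKO and 1709 to 2493 in Ctrl IP. The 6 meningeal fibroblast markers summed to 43.8, 45.2 and 32.9 CPM in cKO IP and to 26.55, 24.34 and 26.99 in Ctrl IP, without overlap. Ptgds, a prostaglandin synthase among them, was called higher (0.82 (0.14), adjusted p = 0.00228) and the collagen gene Col1a1 lower. The red blood cell sums, 141.4, 128.6 and 62.4 CPM in cKO and 50.6, 107.3 and 47.1 in Ctrl, overlapped, with none of 5 markers called and a median log2 fold change of 0.67. The part of these cell types and of length in the ferritin result was not tested. Without cKO IP replicate 2, both ferritin subunits were still called, but leaving out a library does not test the part of any cell type.

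**Figure D3:**
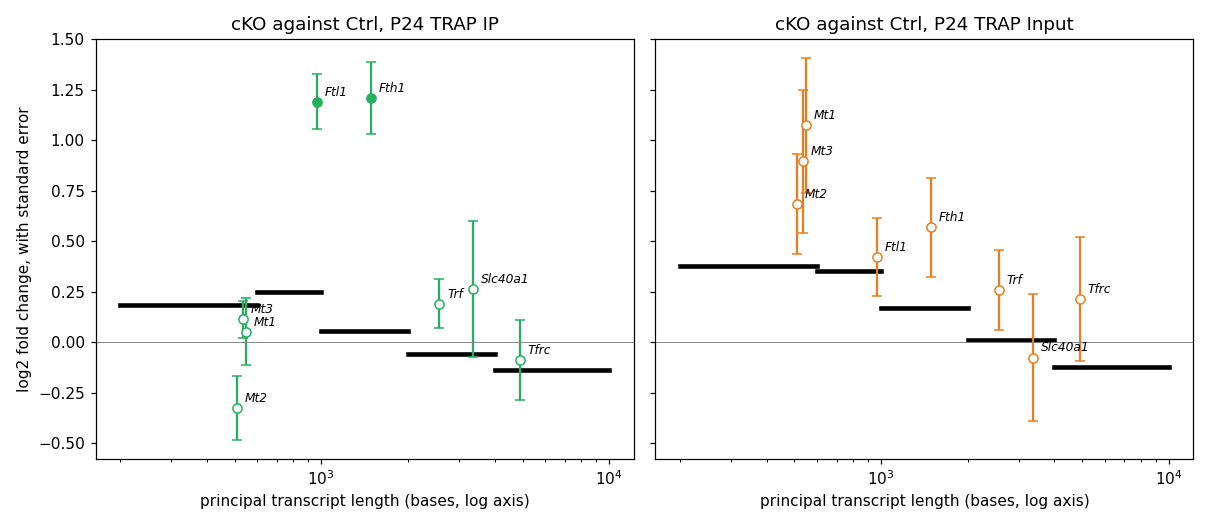
Log2 fold change of cKO against Ctrl (with standard error, filled where called) against principal transcript length on a log axis, for IP (left) and Input (right); black bars are medians of all protein-coding genes in 5 length classes, the outermost, which have no outer limit, drawn to an arbitrary end. Ftl1 and Fth1 lie near 1.2 in IP, above class medians of 0.248 and 0.0578.

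The metallothioneins were not called in this comparison of cKO with Ctrl IP libraries. Mt1 had 2011, 2893 and 1873 CPM in cKO and 2099, 1975 and 2570 in Ctrl IP (0.05 (0.17), adjusted p = 0.865), with overlapping groups. Mt3 ran from 1878 to 2040 CPM in cKO and from 1823 to 1915 in Ctrl (0.11 (0.09), adjusted p = 0.423). Mt2 was lower in the means, with 987.3, 1240 and 801.1 CPM against 1154, 1216 and 1484, but it was not called (-0.32 (0.16), adjusted p = 0.172) and its groups overlapped. It was called lower with total counts only (-0.44, adjusted p = 0.0457) and with the length trend removed (-0.53, adjusted p = 0.0347). Total counts alone moved the median of all genes in this comparison to -0.127, and with it the split of calls from 2772 higher and 2010 lower to 2002 higher and 3529 lower, while Fth1 and Ftl1 remained called higher. Tfrc (-0.09 (0.20), adjusted p = 0.807), Trf (0.19 (0.12), adjusted p = 0.301) and Slc40a1 (0.26 (0.34), adjusted p = 0.635) were not called. Slc40a1 rested on 15 to 39 counts a library here.

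In the Input libraries, which hold RNA of all cortical cells, no member was called by edgeR or DESeq2. By edgeR, 0.0923% of 23828 genes were called higher and 0.0168% lower. Before adjustment 4 members had an edgeR p under 0.05, but the share of all genes under that looser threshold was not determined. Mt1 had 338.8, 186.9 and 118.6 CPM in cKO against 93.0, 90.0 and 117.5 in Ctrl, or 1.07 (0.33) on the log2 scale (adjusted p = 0.812). Mt3 had 676.0, 259.5 and 242.4 CPM against 195.3, 222.0 and 203.6 (0.90 (0.35), adjusted p = 0.812). Mt2 followed with 92.4, 66.2 and 49.5 CPM against 37.9, 36.2 and 53.3 (0.69 (0.25), adjusted p = 0.812). The first of these cKO mice was the highest Input library for every metallothionein and for both ferritin subunits, with 2302 CPM of Fth1 and 333.0 of Ftl1, and it is the library with the high red blood cell sum. Its meningeal fibroblast marker sum was 236.7 CPM, against 82.4 to 120.5 in the other Inputs. The other cKO Inputs had 1183 and 1187 CPM of Fth1 and 213.9 and 206.9 of Ftl1, still above the Ctrl ranges of 996.2 to 1081 and 176.9 to 193.1. Fth1 was at 0.57 (0.24) and Ftl1 at 0.42 (0.19) with all 6 libraries. For Mt1, Mt3, Fth1 and Ftl1 all 3 cKO Inputs lay above all 3 Ctrl Inputs, and for Mt2 the groups overlapped. The share of all genes that separate in this way was not determined, so the separation is not a result about these members. Without cKO replicate 1 the log2 fold changes were 0.60 for Mt1, 0.44 for Mt2, 0.27 for Mt3, 0.19 for Fth1 and 0.18 for Ftl1, and no member was called either. Trf was at 0.26 (0.20) with it and 0.34 without it, Tfrc at 0.21 and 0.42, and Slc40a1 at -0.07 and 0.13. The median of protein-coding genes was 0.378 up to 600 bases in this comparison, 0.353 above that and up to 1000 bases, and 0.172 up to 2000 bases. The astrocyte marker sum was 1543 to 1937 CPM in cKO against 963.6 to 1115 in Ctrl, with Aldoc called higher.

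A test of the difference between the IP and Input effects called no member (0.0388% of 25768 genes had a more positive and 0.0194% a more negative effect in IP). The differences were 0.77 (0.25) for Ftl1 (adjusted p = 0.357), 0.63 (0.34) for Fth1 (0.636), -1.01 (0.32) for Mt2 (0.321) and -1.03 (0.41) for Mt1 (0.482). DESeq2 called none of the 8. Before adjustment 3 members had an edgeR p under 0.05, with the share of all genes under that threshold not determined. Without cKO Input replicate 1, the effect on Ftl1 was called larger in IP by 1.00 (adjusted p = 0.0221), while Fth1 was at 1.01 (adjusted p = 0.0506), Mt2 at -0.77 (0.157) and Mt1 at -0.56 (0.353). Without the low-count filter Mt2 was called with a difference of -1.06 (adjusted p = 0.0473). With all libraries, the ferritin difference in IP is not shown to differ from that in Input.

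In bulk cortex at P24 the members were close to their Ctrl levels. None of the 8 was called by edgeR or DESeq2. By edgeR, 1.26% of 22494 genes were called higher and 0.462% lower in cKO. Before adjustment 3 members had an edgeR p under 0.05, but the share of all genes under that looser threshold was not determined. Ftl1 had 104.3, 145.2, 142.5 and 139.2 CPM in cKO and 113.5, 109.9, 112.2 and 113.6 in Ctrl. The cKO replicates 2, 3 and 4 lay above every Ctrl library and cKO replicate 1 lay below them all. Its log2 fold change, 0.25 (0.09), had an adjusted p of 0.233 and an exact two-sided permutation p of 0.143 on the difference of means. Without cKO replicate 1, Ftl1 was called higher in cKO (0.34, adjusted p = 0.00104), and 952 genes were called in place of 388 in all. Fth1 had 1019, 1034, 985.8 and 952.5 CPM in cKO and 868.1, 840.5, 1044 and 877.1 in Ctrl (0.14 (0.06), adjusted p = 0.35). A single Ctrl library was the highest of the 8, and without it, Ctrl replicate 3, Fth1 was called (0.21, adjusted p = 0.0268). Trf had 125.3, 176.0, 168.2 and 137.5 CPM in cKO and 101.8, 111.5, 137.5 and 134.1 in Ctrl (0.33 (0.12), adjusted p = 0.234), with overlapping groups. Tfrc ran from 58.5 to 89.8 CPM in cKO and from 58.5 to 79.5 in Ctrl (0.26 (0.13), adjusted p = 0.426), and Slc40a1 from 4.55 to 6.29 and from 4.58 to 5.60 (0.08 (0.14), adjusted p = 0.863). The metallothioneins differed by less than the spread between mice, with 0.12 (0.10) for Mt1, -0.01 (0.14) for Mt2 and 0.07 (0.05) for Mt3.

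**Figure D4:**
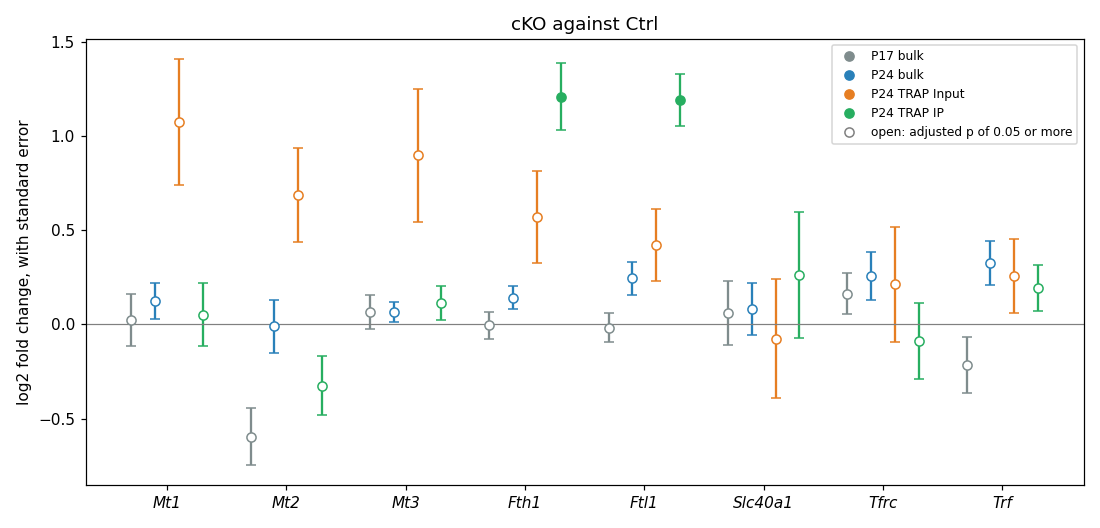
Log2 fold change of cKO against Ctrl for each gene in P17 bulk (grey), P24 bulk (blue), P24 TRAP Input (orange) and P24 TRAP IP (green), with standard errors, 4 mice per group in bulk and 3 in TRAP-Seq. The filled points, called at an adjusted p under 0.05, are Fth1 and Ftl1 in IP, and the lowest point is Mt2 at P17 with -0.60.

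At P17, the earlier age, Mt2 was the member with the largest difference between genotypes. It had 30.4, 42.6, 46.5 and 32.7 CPM in cKO and 45.8, 57.0, 74.1 and 54.9 in Ctrl, and the highest cKO library lay just above the lowest Ctrl library. The log2 fold change was -0.60 (0.15). Without pairing this was not called (adjusted p = 0.45, with an unadjusted p of 0.00189), and the exact two-sided permutation p was 0.0571, where 4 mice against 4 cannot go below 0.0286. No label says that same-numbered mice were paired, but same-numbered cKO and Ctrl libraries deviated together at this age. Whether differently numbered libraries did so too was not determined. A fit blocked by replicate number, which rests on a pairing inferred from these same data, called Mt2 lower in cKO (-0.60, adjusted p = 8.87e-06). Mt2 was lower in 4 of 4 same-numbered pairs, with cKO over Ctrl ratios of 0.664, 0.747, 0.627 and 0.595. The share of all genes lower in every pair was not determined, so this count is not a result about Mt2. DESeq2 called it too (adjusted p = 0.0268), as did the fit without the low-count filter (adjusted p = 0.00225). Without pairing, 0.066% of 21201 genes were called higher and 0.0283% lower, and with the block 0.396% were higher and 0.118% lower. The overlapping antisense gene was counted in the same way, and with its counts added the difference of Mt2 was -0.60 (adjusted p = 0.279, without the block).

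Mt1, its neighbour on the chromosome, was not called. Mt1 had 161.2, 200.9, 227.1 and 191.6 CPM in cKO and 144.4, 174.0, 236.6 and 217.5 in Ctrl at P17 (0.02 (0.14)), lower in cKO in 2 of 4 pairs. The ratio of Mt1 to Mt2 per kb was accordingly 4.39 to 5.45 in the 4 P17 cKO libraries and 2.84 to 3.69 in the 4 Ctrl libraries, without overlap. In P24 bulk it was 2.98 to 3.47 in cKO and 2.52 to 3.24 in Ctrl, with overlap. In IP it was 1.90 to 2.18 in cKO and 1.51 to 1.69 in Ctrl, again without overlap. These ratios were formed after the values of Mt1 and Mt2 were seen and carry no test. Mt3 was 0.06 (0.09) at P17, and Fth1, Ftl1, Slc40a1, Tfrc and Trf lay between -0.22 and 0.16, none of them called with or without the block.

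**Figure D5:**
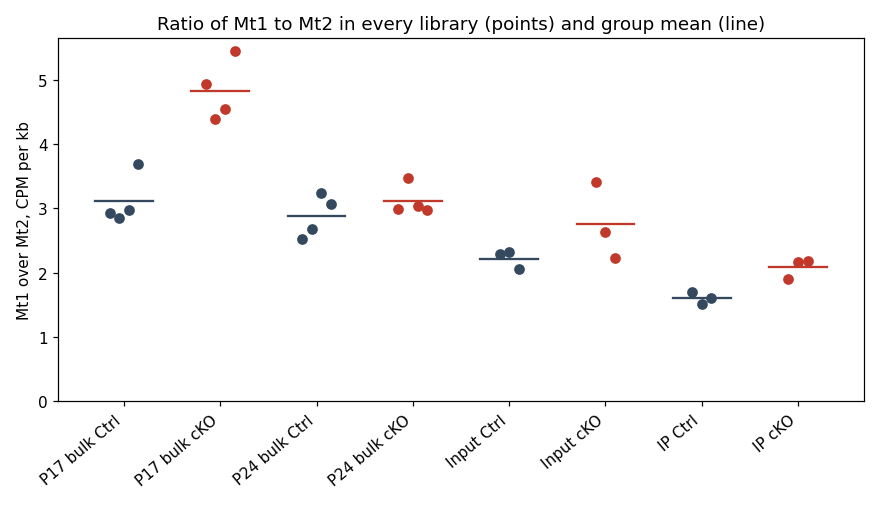
Ratio of Mt1 to Mt2 (each as CPM per kb of principal transcript) in every library, by group, with group means as lines, Ctrl in dark blue and cKO in red. The P17 cKO libraries lie between 4.39 and 5.45, above all 4 P17 Ctrl libraries.

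The difference in genotype effect between the ages was called for no member by edgeR or DESeq2. Age and table coincide in this test too and cannot be told apart. By edgeR, 0.0342% of 23395 genes had a more positive effect at P24 and 0.0128% a more negative one. Before adjustment 2 members had an edgeR p under 0.05, with the share of all genes under that threshold not determined. For Mt2 the effect at P24 was more positive than at P17 by 0.58 (0.23), with an adjusted p of 0.694, and for Trf by 0.54 (0.21), with an adjusted p of 0.679. Trf was lower in cKO in 3 of 4 pairs at P17 and its mean was higher in cKO at P24.

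Other genes of iron and metal handling were followed through gene lists. In IP, genes of iron uptake, release and storage outside the members were called higher in cKO in 4 of 17 tested and lower in none, with a median log2 fold change of 0.01 against -0.01 over all genes; over all genes 11.6% were called higher and 8.42% lower, and these shares are the background of the IP counts that follow. Cybrd1, a ferric reductase, rose by 1.26 (0.25) on the log2 scale (adjusted p = 0.00582). Slc39a14, which imports iron not bound to transferrin as well as zinc, rose by 1.23 (0.14) (adjusted p = 0.000421). Hmox1, the heme oxygenase that frees iron from heme, rose by 0.63 (0.12), and Heph, a ferroxidase that works with ferroportin, by 0.52 (0.11). Cybrd1 (1.78 (0.30), adjusted p = 0.00917) and Slc39a14 (0.53 (0.07), adjusted p = 0.00273) were also the genes of this list, of 18 tested, called in P24 bulk.

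Of the iron sensing and hepcidin genes, Hfe, a partner of the transferrin receptor, rose in IP (1.43 (0.15), adjusted p = 0.000254) and in P24 bulk (1.20 (0.18), adjusted p = 0.00576), and Bmp6, a ligand that drives hepcidin, fell in IP by 0.66 on the log2 scale (adjusted p = 0.0406). Aco1 (-0.23 (0.12), adjusted p = 0.217) and Ireb2 (-0.07 (0.11), adjusted p = 0.709), the iron regulatory proteins, were not called in IP. In P24 bulk they had 0.20 (0.05) and 0.09 (0.05), with adjusted p of 0.091 and 0.493. The hepcidin genes Hamp and Hamp2 did not pass the filter on low counts in any comparison of cKO with Ctrl.

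Iron-sulfur cluster assembly, a mitochondrial use of iron, had 6 of 10 genes called higher in IP and none lower, with a median of 0.42. Lyrm4, Isca2, Bola3 and Hscb had the largest differences, at 0.71 (0.11), 0.68 (0.09), 0.61 (0.11) and 0.59 (0.15). None of the 10 was called in P24 bulk. Copper handling genes were called higher in 3 of 9 (Cox17 0.61 (0.12), Slc31a1 0.59 (0.14), Sod1 0.43 (0.09)) and lower in none. Among all protein-coding genes with transcripts of up to 600 bases 26.3% were called higher, and of those above that and up to 1000 bases 34.1%; the part of transcript length in these counts was not tested.

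Zinc transport genes were mostly not called. Of 19 zinc genes, Slc39a12, a zinc importer, was called lower in IP (-0.85 (0.17), adjusted p = 0.00635) and 18 were not called, among them the zinc sensor Mtf1 (0.11 (0.09), adjusted p = 0.447). Mtf1 was at -0.14 (0.04) in P24 bulk (adjusted p = 0.174) and at -0.15 (0.06) in P17 bulk (adjusted p = 1). The glucocorticoid-responsive genes went in both directions in IP: 5 of 10 were called lower, Tsc22d3 (-0.90 (0.16)) and Zbtb16 (-0.76 (0.21)) foremost, and 2 higher, Cdkn1a (2.11 (0.09)) and Plin4 (1.31 (0.25)). In P17 bulk and in Input, no gene of these 6 lists was called by edgeR without pairing.

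The same lists also held genes that differed between IP and Input in Ctrl mice. Of 19 zinc genes, 5 were called higher and 6 lower, and of 10 glucocorticoid-responsive genes 5 and 4. Slc39a12 was enriched by 4.15 (0.19) and Pdk4, a glucocorticoid-responsive kinase, by 3.98 (0.19), close to the metallothioneins, whereas Slc30a3, which loads zinc into synaptic vesicles, was depleted (-2.79 (0.16)). Slc30a10 was enriched by 1.54 (0.11) and Slc39a3 depleted (-1.48 (0.15)). Tsc22d3 was enriched by 2.80 (0.15), and Per1 (-1.53 (0.17)) and Sgk1 (-1.48 (0.13)) were depleted. Of 18 genes of iron uptake, release and storage, 6 were called higher and 8 lower in IP (median -0.19), against 35.3% and 35.7% of all genes. Cybrd1 (2.91 (0.23)), Steap3 (2.80 (0.28)) and Hmox1 (2.16 (0.16)) were higher in IP, and Lcn2 was lower (-3.13 (0.63)). Of 10 genes of iron-sulfur cluster assembly, 7 were called, all of them higher in IP, among them Lyrm4 (1.67 (0.10)), Isca2 (1.60 (0.10)) and Bola3 (1.41 (0.10)). Of 7 iron sensing genes, Hfe (1.73 (0.22)), Aco1 (1.03 (0.12)) and Ireb2 (0.63 (0.11)) were called, all higher, and of 8 copper genes 5 were called, all higher, with Slc31a1 (1.40 (0.15)), Sod1 (1.09 (0.09)), Ccs (1.09 (0.11)) and Atox1 (0.82 (0.10)) among them. Mtf1 was lower (-0.45 (0.10)). Mt4, the remaining metallothionein of the cluster, did not pass the filter in this comparison.

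Finally, the genes with the most similar profile were sought for each member, by the root mean square difference of centred log2 CPM over the 8 group means, among 17939 genes. The group means come from tables scaled separately. For Mt2, Ftl1 and Trf the nearest genes were those that share their sequence: Gm45774 (0.0347), Ftl2-ps (0.0468) with Gm15590 (0.0599), and Gm20425 (0.198). The second genes were BC064078 (0.315) for Mt2 and Igfn1 (0.245) for Trf. Mt1 was nearest to Car8 (0.202) and Suclg2 (0.211), and Mt3 to Cib1 (0.117) and Eci3 (0.164). Fth1 was nearest to Abi3 (0.187) and Phospho1 (0.24), Slc40a1 to Cdh6 (0.144) and Igsf3 (0.148), and Tfrc to Apmap (0.0676) and Fancd2 (0.0816).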

How the data were processed

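RNA was sequenced from mouse cerebral cortex in 28 libraries of 1 mouse each (bulk at P17 and P24, TRAP-Seq Input and IP at P24). The authors mapped reads to mm10 with STAR in Galaxy and deposited unnormalized counts for each Ensembl gene in 3 tables. Which tool counted the reads, with which strand setting and annotation, is not given in the sources used here. Bulk RNA was primed with oligo-dT, and TRAP-Seq libraries were made with the NEBNext Ultra kit after selection on oligo-dT beads, so both favour polyadenylated RNA. Samples were grouped by genotype, age and fraction as labelled. The gene targeted in the study and single values of some listed genes are not reported here. One shortened identifier of the P24 table (0.000111% of counts) was left out.

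The comparisons used edgeR 4.0.16 under R 4.3.3 (TMM factors; filterByExpr at 10 counts, 15 in total and 70% of libraries; two-sided quasi-likelihood test, Benjamini-Hochberg adjustment over all genes tested, threshold 0.05). The standard error is the log2 fold change divided by the square root of F. Library totals set a floor of 3 counts, between 0.110 and 0.339 CPM, for counting error alone. In 36 replicate pairs the chi-square per degree of freedom ran from 2.59 to 78.6, so no library was a repeat. Single genes in bulk were compared with exact two-sided permutation tests.

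Same-numbered cKO and Ctrl libraries at P17 deviated together (correlations of deviations from the group means of 0.321, 0.184, 0.38 and 0.167). This was taken as pairing, though no label gives it. In P24 bulk the correlations were 0.219, 0.0289, 0.0764 and 0.0977, which was not taken as pairing, though 0.219 exceeds the 0.184 and 0.167 at P17. Differently numbered libraries were not correlated, so these values have no baseline and the P17 pairing remains uncertain. IP and Input of a number come from the same mouse. The reported fits of IP against Input and of the interaction of fraction had no block for the mouse. Their standard errors and p-values leave this pairing out. Alternatives were RLE factors, total counts only, DESeq2 1.42.0, no filter beyond 1 count, the replicate block and leaving out each library. Removal of the length trend and addition of copies (blastn 2.17.0, 95% identity over 100 bases) were chosen after seeing the data. The code was tested on simulated data.

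The members and gene lists were chosen with earlier results of these data known. Symbols, positions and lengths come from GENCODE release M21 (53237 of 53342 identifiers), promoters from RefSeq (6 of 8 members). Named were all 8 members, Mtf1, Aco1 and Ireb2, for each list at most the 4 called genes with the largest change in P24 bulk, IP, and IP against Input in Ctrl mice, the 2 genes nearest in profile to each member, and copies of members.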

Additional observations from a re-analysis of the deposited data

Results flagged for a closer look

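Of 32 groups of 4 bulk libraries and members examined with Dixon's criterion at its 95% limit, 2 held a library that stood apart, where chance gives about 5%. Ftl1 in P24 bulk cKO replicate 1 had 104.3 CPM, below the other 3 cKO libraries, with a gap of 0.853 of the group's range. Trf in P17 bulk cKO replicate 2 had 91.5 CPM, above the other 3 cKO libraries, with a gap of 0.846 of the range.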

How the results depend on the processing

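The inferred P17 pairing changed 1 call: with the replicate block 1 member, Mt2, and 109 genes in all were called at P17, against none of the members and 20 genes without it. In other comparisons the numbers were not taken to pair the cKO and Ctrl libraries. The block gave 8 genes in Input, 55 for the interaction of age and 6 for that of fraction, and Mt2 turned to 0.0053 in P24 bulk. With DESeq2, 598 genes were called in P24 bulk, 41 at P17 (with 1 member), 127 in Input, and 54 and 284 for the interactions of age and fraction. Without the low-count filter these were 619, 55 (with 1 member), 112, 62 and 189 (with 1 member). Removing the length trend gave 34 genes for the interaction of fraction. As reported, the counts were 388, 20, 26, 11 and 15.

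Some signs turned for members that were not called. Total counts only gave 0.00034 for Mt2 in P24 bulk, -0.067 for Mt1 in IP and 0.016 for Mt3 in the interaction of age, which was 0.012 without the filter. With the length trend removed, IP gave -0.148 for Mt1, -0.080 for Mt3 and 0.020 for Tfrc, and IP against Input in Ctrl mice gave 0.193 for Tfrc.

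Leaving out each library in turn, all genes called ran from 216 (without cKO replicate 2) to 952 (without cKO replicate 1) in P24 bulk, 11 (without Ctrl replicate 2) to 19 at P17, 2633 (without cKO replicate 2) to 4810 in IP, 4 (without Ctrl replicate 2) to 112 (without cKO replicate 1) in Input, 4 to 149 for the interaction of age (highest without P24 cKO replicate 1) and 3 to 432 for that of fraction (highest without Input cKO replicate 1). For IP against Input they ran from 16154 to 17296 in Ctrl mice and from 10973 to 16818 in cKO mice. Members called ran from 0 to 1 in P24 bulk and for the interaction of fraction. For IP against Input they ran from 7 to 8 in Ctrl mice and from 5 to 7 in cKO mice. Ranges of log2 fold changes that crossed 0 were, in P24 bulk, -0.104 to 0.162 (Mt2) and -0.0016 to 0.156 (Slc40a1); at P17, -0.092 to 0.139 (Mt1), -0.0080 to 0.131 (Mt3), -0.072 to 0.037 (Fth1), -0.071 to 0.026 (Ftl1) and -0.044 to 0.18 (Slc40a1); in IP, -0.166 to 0.175 (Mt1), -0.086 to 0.513 (Slc40a1) and -0.358 to 0.151 (Tfrc); in Input, -0.275 to 0.194 (Slc40a1) and -0.063 to 0.468 (Tfrc); for IP against Input in Ctrl mice, -0.393 to 0.064 (Tfrc); for the interaction of age, -0.019 to 0.217 (Mt1), -0.071 to 0.075 (Mt3), -0.092 to 0.123 (Slc40a1) and -0.044 to 0.205 (Tfrc); for that of fraction, -0.018 to 0.559 (Slc40a1) and -0.307 to 0.0175 (Trf). The causes were not tested. Slc40a1 rested on 15 to 39 counts in an IP library.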
